A study of Mus musculus with 8 samples.

Results

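The genes of the major histocompatibility complex (MHC) and of antigen presentation were examined in ChIP-seq peak lists of 4 histone modifications from Lewis lung carcinoma (LLC) isografts. The members are gene models of the GENCODE vM1 annotation whose symbol starts with H2-, together with B2m, Tap1, Tap2, Tapbp, Psmb8, Psmb9, Psmb10, Ciita, Nlrc5, Cd74 and Erap1. This gave 49 gene models with 46 symbols, of 22367 protein-coding gene models in all. Ciita, Psmb9 and H2-Q2 have 2 models each, and the second of each pair is named here as the short, the duplicate and the distal model. Nlrc5 is typed as a non-coding RNA in this annotation and was added by name, so that 48 of the models are protein coding.

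The study compared tumors grown from LLC-NR cells, which are sensitive to VEGF-Trap, with tumors from LLC-R cells, a resistant line derived by repeated VEGF-Trap treatment of tumors in mice. VEGF-Trap is a decoy receptor that binds vascular endothelial growth factor. Both lines were grown under the skin of female C57BL/6J mice 6 to 8 weeks old, and the sources used here name no treatment of the mice that carried the isografts. LLC is an established mouse line of C57BL/6 origin, and each arm is 1 line. Each mark has 1 library per line, 8 in all, so no difference between LLC-NR and LLC-R has a replicate check, and how many tumors went into a library is not given in the sources used here. Pairs of values are written with LLC-NR before LLC-R.

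MHC class I molecules carry peptides from inside the cell to cytotoxic T cells. The peptides are cut by the immunoproteasome (Psmb8, Psmb9, Psmb10), carried into the endoplasmic reticulum by Tap1 and Tap2, trimmed by Erap1 and loaded with the help of tapasin (Tapbp) onto a heavy chain (H2-K1, H2-D1) that is paired with beta-2 microglobulin (B2m). MHC class II molecules (H2-Aa, H2-Ab1, H2-Eb1) carry peptides from outside the cell to helper T cells, mostly on dendritic cells, macrophages and B cells, and need the invariant chain (Cd74) and the H2-DM and H2-O proteins. Nlrc5 and Ciita are the transactivators of class I and class II genes, and interferon gamma raises both sets. The H2-Q, H2-T and H2-M genes encode class I-like heavy chains of narrower expression. H3K4me3 and H3K9ac mark active promoters, H3K27me3 marks genes silenced by Polycomb and H3K36me3 marks the bodies of transcribed genes.

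Except for B2m, Psmb10, Cd74, Erap1, Ciita and Nlrc5, all members lie in 1 interval of mm9, chr17:34052844-37620497, which holds families of near-identical genes. The authors kept uniquely mapped reads only, so these copies are shown before any value. Below is a stretch of 120 bases upstream of H2-Q6 (chr17:35561635-35561754, plus strand of mm9) with the matching stretches upstream of H2-Q8 (chr17:35530884-35531003) and H2-Q7 (chr17:35575979-35576098). Capitals mark the bases that differ from H2-Q6.
H2-Q6: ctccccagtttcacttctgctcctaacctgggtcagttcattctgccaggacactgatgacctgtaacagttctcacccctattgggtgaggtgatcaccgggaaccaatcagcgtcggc
H2-Q8: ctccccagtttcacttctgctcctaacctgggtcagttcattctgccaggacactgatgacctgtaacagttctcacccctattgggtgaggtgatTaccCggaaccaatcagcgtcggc
H2-Q7: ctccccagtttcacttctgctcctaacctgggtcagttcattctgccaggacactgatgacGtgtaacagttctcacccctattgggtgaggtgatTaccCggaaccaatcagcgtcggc
H2-Q8 differed from H2-Q6 at 2 of the 120 bases and H2-Q7 at 3. A read that falls wholly in such a stretch has another place to map to when up to 2 mismatches are allowed. The next set is shown because H2-M10.3 was given different promoter states in the lines. It gives the 120 bases upstream of the TSS of H2-M10.3 (chr17:36505363-36505482, minus strand) with the best matches, upstream of H2-M10.5 (chr17:36909729-36909848, plus strand) and of H2-M10.1 (chr17:36463102-36463221, minus strand), and capitals again mark differences.
H2-M10.3: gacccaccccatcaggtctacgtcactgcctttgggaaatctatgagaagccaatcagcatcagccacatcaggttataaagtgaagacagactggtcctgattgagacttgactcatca
H2-M10.5: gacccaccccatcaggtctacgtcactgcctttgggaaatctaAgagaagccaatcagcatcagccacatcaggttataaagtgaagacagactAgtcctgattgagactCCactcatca
H2-M10.1: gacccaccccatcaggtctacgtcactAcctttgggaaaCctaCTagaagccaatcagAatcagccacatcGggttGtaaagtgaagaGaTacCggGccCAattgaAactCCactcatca
H2-M10.5 differed at 4 bases and H2-M10.1 at 16. The copy of H2-T23 is more distant. Its stretch at chr17:36169801-36169920 and the best match at chr17:36248793-36248912, both on the minus strand, differed at 17 bases, most of them at the 5' end.
H2-T23: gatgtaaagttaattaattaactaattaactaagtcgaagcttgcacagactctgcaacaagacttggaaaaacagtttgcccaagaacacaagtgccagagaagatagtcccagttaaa
H2-T23 copy: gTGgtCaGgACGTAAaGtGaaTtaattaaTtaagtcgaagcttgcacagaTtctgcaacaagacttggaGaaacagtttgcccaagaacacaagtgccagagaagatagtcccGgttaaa

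Promoters that stand for the class I and class II members are shown next, as the 250 bases upstream of the annotated start, to set letters beside a part of the 1.5-kb windows in which peaks were counted. These windows are longer, and of the B2m peaks given below most lie outside the printed stretch. Capitals mark matches, on either strand, to GAAANNGAAA (the core of the interferon-stimulated response element), CCAAT (the box bound by NF-Y), TGACG (a site of the CREB and ATF family), GGGATTCCC (a kappaB site) and TATAAA. Where matches overlap, as in TGACGTCA, the capitals run on.
B2m, chr2:121973172-121973421, plus strand: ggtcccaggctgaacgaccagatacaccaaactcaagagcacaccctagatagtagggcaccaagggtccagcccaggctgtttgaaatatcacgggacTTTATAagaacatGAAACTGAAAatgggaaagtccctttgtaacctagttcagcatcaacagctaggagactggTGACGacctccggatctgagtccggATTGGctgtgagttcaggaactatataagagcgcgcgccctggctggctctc
H2-K1, chr17:34137279-34137528, minus strand: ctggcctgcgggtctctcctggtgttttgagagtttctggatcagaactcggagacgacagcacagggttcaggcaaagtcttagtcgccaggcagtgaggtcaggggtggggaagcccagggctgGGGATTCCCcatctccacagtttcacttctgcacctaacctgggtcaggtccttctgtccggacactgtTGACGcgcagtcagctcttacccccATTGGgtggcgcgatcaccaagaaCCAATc
H2-Aa, chr17:34424773-34425022, minus strand: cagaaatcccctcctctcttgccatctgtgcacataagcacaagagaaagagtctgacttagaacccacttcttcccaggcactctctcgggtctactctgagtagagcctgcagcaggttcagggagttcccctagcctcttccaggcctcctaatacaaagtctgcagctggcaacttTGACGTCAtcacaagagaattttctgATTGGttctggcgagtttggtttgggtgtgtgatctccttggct
H2-Ab1, chr17:34399904-34400153, plus strand: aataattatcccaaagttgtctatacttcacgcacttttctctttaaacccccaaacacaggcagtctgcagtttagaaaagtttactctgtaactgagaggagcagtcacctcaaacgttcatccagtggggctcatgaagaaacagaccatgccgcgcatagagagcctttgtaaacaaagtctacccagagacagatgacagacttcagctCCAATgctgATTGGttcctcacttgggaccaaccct
H2-M9, chr17:36779612-36779861, minus strand: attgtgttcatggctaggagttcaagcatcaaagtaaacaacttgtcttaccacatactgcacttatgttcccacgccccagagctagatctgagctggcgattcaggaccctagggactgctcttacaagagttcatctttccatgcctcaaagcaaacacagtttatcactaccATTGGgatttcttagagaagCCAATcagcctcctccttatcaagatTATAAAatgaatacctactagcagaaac
The printed stretch of H2-K1 ends 50 bp, and that of H2-Ab1 31 bp, upstream of the TSS used for counting. CCAAT was found in the 250 bases of 30 of 49 members (61.2%) and in 34.8% of all protein-coding promoters. GGGATTCCC was found in 3 members, H2-K1, H2-Q6 and H2-Q7 (6.12%), and in 0.304% of all promoters. GAAANNGAAA was found in 5 members, B2m, Ciita, Erap1, H2-Q2 and H2-T9 (10.2%, against 3.37% of all), TGACG in 14 members (28.6%, against 19.6%) and TATAAA in 16 members (32.7%, against 12.4%). These matches describe the sequence and were not tested as binding sites. By the CpG rule, 25 members (51.0%) have CpG-poor promoters, 19 (38.8%) CpG-rich promoters and 5 (10.2%) intermediate ones, while of all promoters 28.4% are CpG-poor, 53.9% CpG-rich and 17.7% intermediate. The H2-M genes and the class II genes are nearly all CpG-poor, and the immunoproteasome and loading genes mostly CpG-rich.

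The lists hold 5660458 to 9101721 peaks per library, each as wide as the DNA of 1 nucleosome. Peaks of a library do not overlap, which limits how many fit in a promoter of 1.5 kb, of which 1 kb lies before the TSS and 0.5 kb after it. The highest number found in a promoter was 9, and distal windows of the same length held up to 10. Peaks were not confined to promoters. Distal windows (1406036 of 1.5 kb, with no TSS within 5 kb) averaged 3.18 versus 3.19 H3K4me3 peaks, and all promoters 4.91 versus 4.6. For H3K27me3 the means were 4.2 versus 5.26 in these windows and 4.55 versus 5.45 in promoters. A single peak of any mark is thus no sign of a marked gene, and numbers are read against all promoters of the same library. In the windows of the MHC interval (613 of them), peak numbers were 88.4% to 110% of the mean over all windows. This percentage was lower in LLC-R for each of the 4 marks. It was 103% versus 92.5% for H3K4me3, 100% versus 94.4% for H3K9ac, 110% versus 95.6% for H3K27me3 and 93.4% versus 88.4% for H3K36me3. The libraries come from whole tumors, in which fewer cells of a type and fewer marked nucleosomes per cell cannot be told apart. Values below are numbers of peaks as deposited. After division by uniquely mapped reads, the mean difference between the lines over the members turned sign for each of the 4 marks, so a direction given for a gene holds for the deposited numbers.

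The label MHC fits the members by their symbols, except for H2-Ke2 and H2-Ke6. These carry an H2- symbol from their place in the interval, and encode a prefoldin subunit and a hydroxysteroid dehydrogenase. H2-Ke2 held 8 versus 7 H3K4me3 peaks, and H2-Ke6 held 6 versus 7. Of both, only H2-Ke2 is in any of the counts of promoter calls given below, so leaving both out could hardly move them. It gave 12 members in place of 13 with more H3K27me3 peaks in LLC-R, and 26 in place of 27 with more H3K36me3 peaks.

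Among the groups of MHC and presentation genes, the class I machinery had the highest mean of H3K4me3 and the H2-M genes the highest of H3K27me3 in LLC-NR. The 8 genes B2m, Tap1, Tap2, Tapbp, Erap1, Psmb8, Psmb9 and Psmb10 averaged 6.25 ± 1.28 versus 6.62 ± 1.19 H3K4me3 peaks per promoter (SD over genes, n = 8). All promoters averaged 4.91 ± 2.06 versus 4.6 ± 1.9 (n = 22367). The CpG-rich promoters among them, the class of most of these 8 genes, averaged 6.05 ± 1.35 versus 5.6 ± 1.31 (n = 12045). The same 8 genes had 3.62 ± 1.85 versus 4.25 ± 1.04 H3K27me3 peaks, below the means of all promoters in both lines. The 12 H2-M genes had 3.92 ± 1.16 versus 3.75 ± 1.48 H3K4me3 peaks and 6.33 ± 1.07 versus 6.5 ± 0.674 H3K27me3 peaks. All CpG-poor promoters, the class of most H2-M genes, averaged 3.28 ± 1.88 versus 3.18 ± 1.78 H3K4me3 peaks (n = 6360). For H3K27me3 these CpG-poor promoters averaged 4.28 ± 2.16 versus 5.17 ± 2.13 peaks. The 12 H2-M genes were also above the mean of all promoters for H3K9ac, with 6.83 ± 0.577 versus 6.17 ± 1.11 peaks, against 5.51 versus 4.96. The same held for H3K36me3, with 4.83 ± 0.937 versus 6.0 ± 0.739 peaks, against 3.2 versus 4.96, so H3K4me3 alone was below. The 9 class II genes lay between, with 5.44 ± 1.13 versus 4.67 ± 1.5 H3K4me3 peaks and 5.44 ± 1.51 versus 6.0 ± 1.0 H3K27me3 peaks. Genes of a group are not replicates of a tumor, and these SDs measure the spread among genes only.

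**Figure D1:**
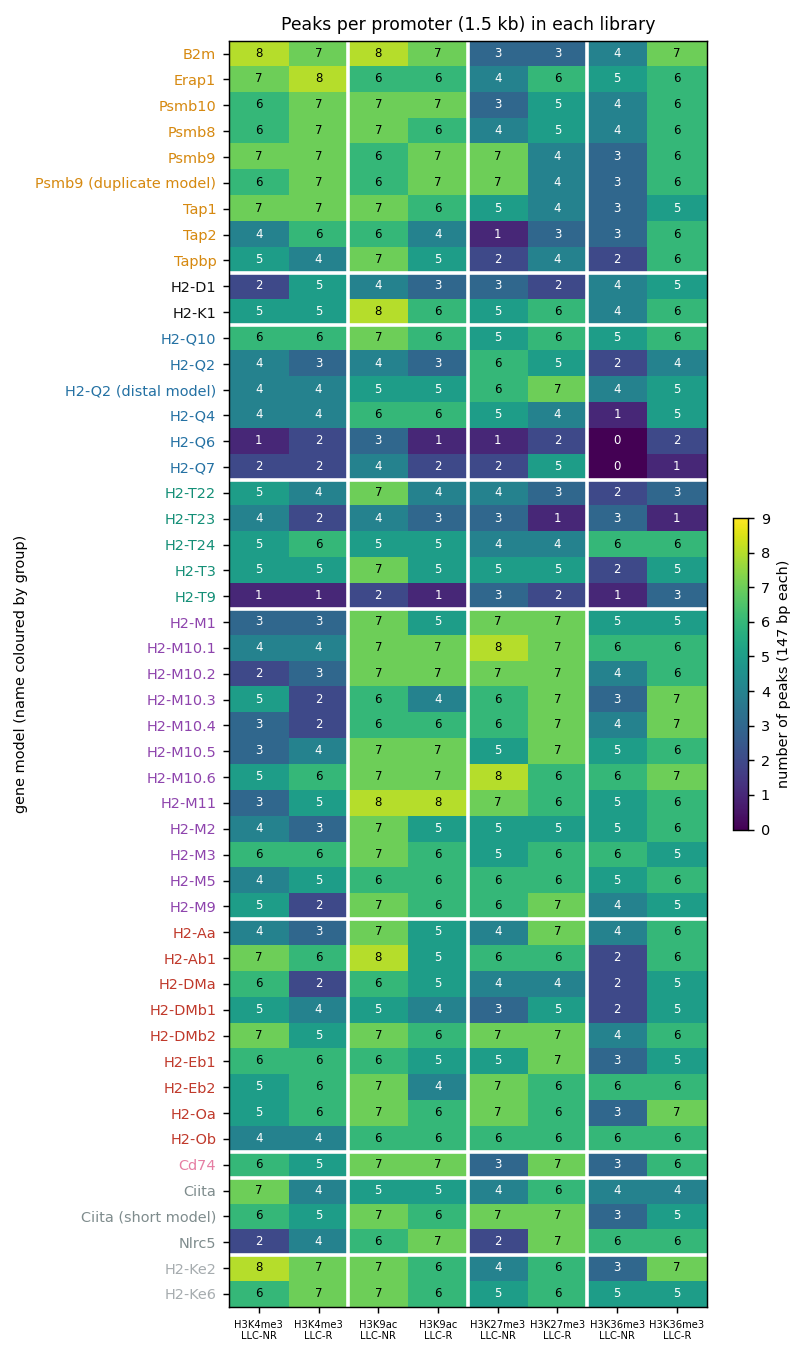
Number of peaks (colour and printed value, scale 0 to 9) in the 1.5-kb promoter of each of the 49 gene models (rows, names coloured by group) in each of the 8 libraries (columns). H2-Q6, H2-Q7, H2-T23 and H2-T9 are low in all marks, B2m is high in H3K4me3 and H3K9ac, and the H2-M genes are high in H3K9ac and H3K27me3.

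B2m, the light chain of all class I molecules, had 8 versus 7 H3K4me3 peaks, and 8 versus 7 H3K9ac peaks. Its H3K27me3 peaks numbered 3 in each line and its H3K36me3 promoter peaks 4 and 7. It was near the highest number found in any promoter for both active marks and low for H3K27me3 in both lines. In LLC-NR the H3K4me3 midpoints lay at -959, -715, -476, -299, -63, 86, 327 and 475 bp from the TSS. In LLC-R they lay at -942, -723, -554, -299, 86, 289 and 465 bp. The LLC-NR peak at -63 bp, over the CCAAT box and the TGACG match printed above, had no counterpart in LLC-R within 20 bp, while the positions -299 and 86 bp were the same to the base pair.

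Tap1 and Psmb9 are read in opposite directions from starts 199 bp apart and share 800 bp of promoter, so their values are not independent. Tap1, a subunit of the peptide transporter, had 7 H3K4me3 peaks in each line, 7 versus 6 H3K9ac peaks, and 5 versus 4 H3K27me3 peaks. Psmb9, a catalytic subunit of the immunoproteasome, had 7 H3K4me3 peaks in each line, 6 versus 7 H3K9ac peaks, and 7 versus 4 H3K27me3 peaks. Both Psmb9 models (1488 bp shared) were thus lower by 3 H3K27me3 peaks in LLC-R. Psmb8 had 6 versus 7 H3K4me3 peaks, 7 versus 6 H3K9ac peaks and 4 versus 5 H3K27me3 peaks, and Psmb10 had 6 and 7, 7 and 7, and 3 and 5 (LLC-NR and LLC-R in that order). All 3 catalytic subunits had as many H3K4me3 peaks in LLC-R as in LLC-NR or 1 more. Tap2, the partner of Tap1, had 4 versus 6 H3K4me3 peaks, 6 versus 4 H3K9ac peaks and 1 versus 3 H3K27me3 peaks, the lowest H3K27me3 number of the machinery in LLC-NR. Of the 1451 50-mers of its promoter, 86.6% have no exact second copy, and 406 have a copy within 2 mismatches by Psmb8. Tapbp had 5 versus 4 H3K4me3 peaks, 7 versus 5 H3K9ac peaks and 2 versus 4 H3K27me3 peaks. Erap1 had 7 versus 8 H3K4me3 peaks, 6 H3K9ac peaks in each line and 4 versus 6 H3K27me3 peaks.

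H2-K1, a classical heavy chain, had 5 H3K4me3 peaks in each line, 8 versus 6 H3K9ac peaks, and 5 versus 6 H3K27me3 peaks. H2-D1, the other classical heavy chain, had 2 versus 5 H3K4me3 peaks, 4 versus 3 H3K9ac peaks and 3 versus 2 H3K27me3 peaks. The TSS shared by most of its transcripts lies 3291 bp downstream of its annotated 5' end, inside the gene. At that 5' end the order of the lines was the opposite for H3K4me3, with 6 versus 4 peaks. H3K9ac had 7 and 5 peaks there and H3K27me3 6 and 3. The choice of start thus turned the direction of H2-D1 for H3K4me3, and neither value has a replicate. H2-D1 is also one of the less unique promoters at the inner start, with 80.8% of 50-mers unique, or 31.9% when copies within 2 mismatches are counted, against 84.1% at the 5' end.

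**Figure D2:**
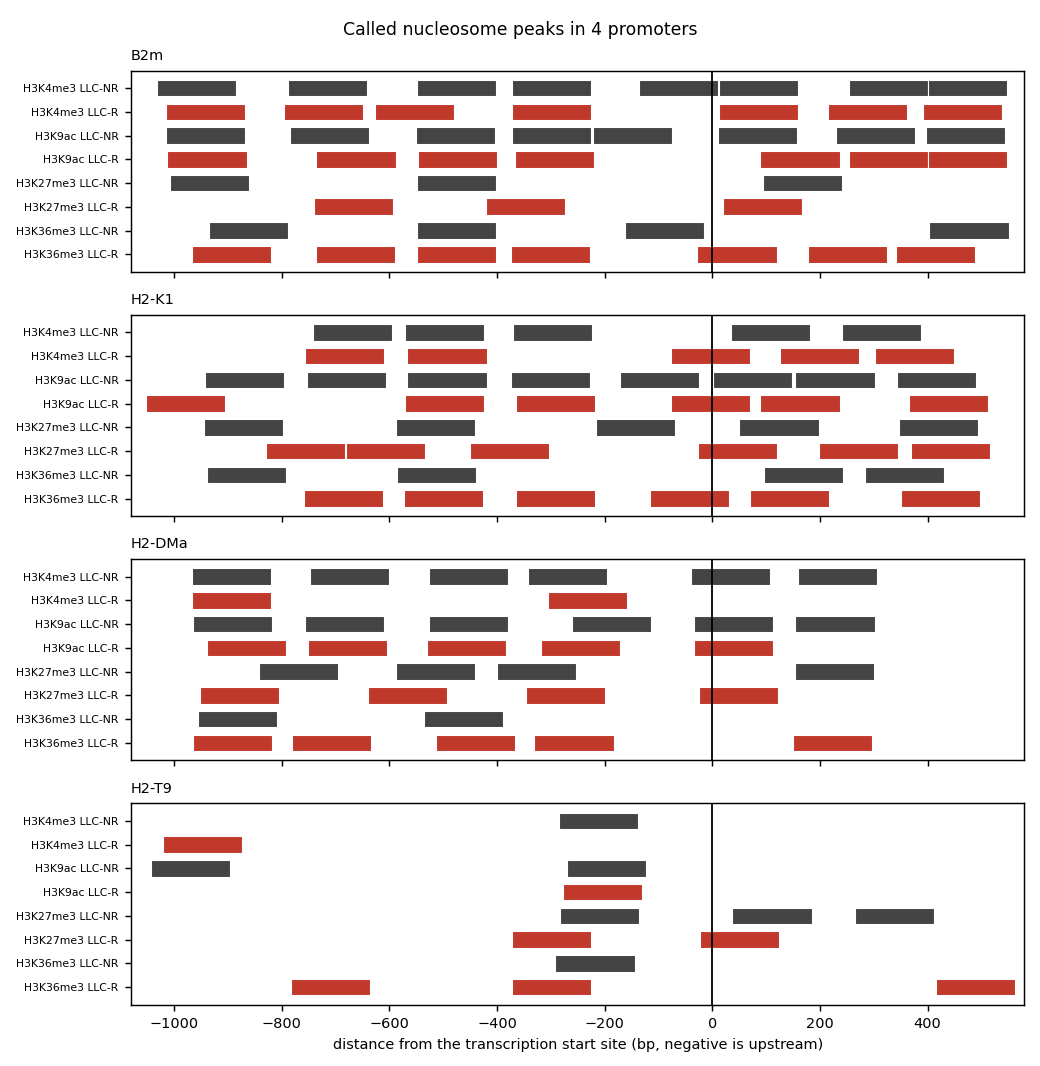
Positions of called peaks (bars, each 1 peak wide) around the TSS (vertical line) of B2m, H2-K1, H2-DMa and H2-T9 in the 8 libraries (rows, grey for LLC-NR and red for LLC-R), as distance from the TSS in bp. B2m has 8 versus 7 H3K4me3 peaks, H2-DMa has 6 versus 2, and H2-T9 has 1 in each.

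Among the class II genes, H2-DMa had the largest difference in H3K4me3. H2-DMa, which with H2-DMb1 or H2-DMb2 forms the peptide editor of class II molecules, had 6 versus 2 H3K4me3 peaks. In LLC-NR they lay at -894, -674, -453, -269, 34 and 232 bp from the TSS, and in LLC-R at -893 and -232 bp, so that only the outermost had a counterpart within 20 bp. Its H3K9ac peaks numbered 6 and 5, and its H3K27me3 peaks 4 in each line, so the other marks at the same promoter differed by 1 peak or less, except H3K36me3 with 2 and 5. H2-DMb2 had 7 versus 5 H3K4me3 peaks, and H2-DMb1 had 5 and 4. The chains of the classical molecules differed less in H3K4me3. H2-Aa had 4 versus 3 H3K4me3 peaks, H2-Ab1 had 7 and 6, and H2-Eb1 had 6 in each line. H2-Eb2 and H2-Oa had 5 and 6 each, and H2-Ob 4 in each line. H3K9ac was lower at more of them. H2-Ab1 had 8 versus 5 H3K9ac peaks, H2-Eb2 had 7 and 4, and H2-Aa had 7 and 5. For H3K27me3, H2-Aa had 4 and 7 peaks, H2-DMb1 had 3 and 5 and H2-Eb1 had 5 and 7, while H2-Oa and H2-Eb2 had 7 and 6 each. H2-Ab1, H2-DMb2 and H2-Ob had the same number in each line, 6, 7 and 6.

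Cd74, the invariant chain that fills the class II groove during transport, had 6 versus 5 H3K4me3 peaks and 7 H3K9ac peaks in each line. Its H3K27me3 peaks numbered 3 versus 7. Ciita, the transactivator of class II genes, had 7 versus 4 H3K4me3 peaks, 5 H3K9ac peaks in each line and 4 versus 6 H3K27me3 peaks. Ciita has several promoters, and the start used lies 8155 bp downstream of the most upstream one. At that upstream start the direction was the same for H3K4me3, with 5 and 3 peaks, and the opposite for H3K27me3, with 7 and 6. The short model of Ciita had 6 versus 5 H3K4me3 peaks and 7 H3K27me3 peaks in each line. Nlrc5, the transactivator of class I genes, had 2 versus 4 H3K4me3 peaks and 2 versus 7 H3K27me3 peaks. Its start lies 52304 bp downstream of its annotated 5' end, where H3K4me3 turned to 4 versus 2 peaks, and H3K27me3 had 3 and 6. The order of the lines for H3K27me3 at Nlrc5 did not depend on the start, while that for H3K4me3 did.

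**Figure D3:**
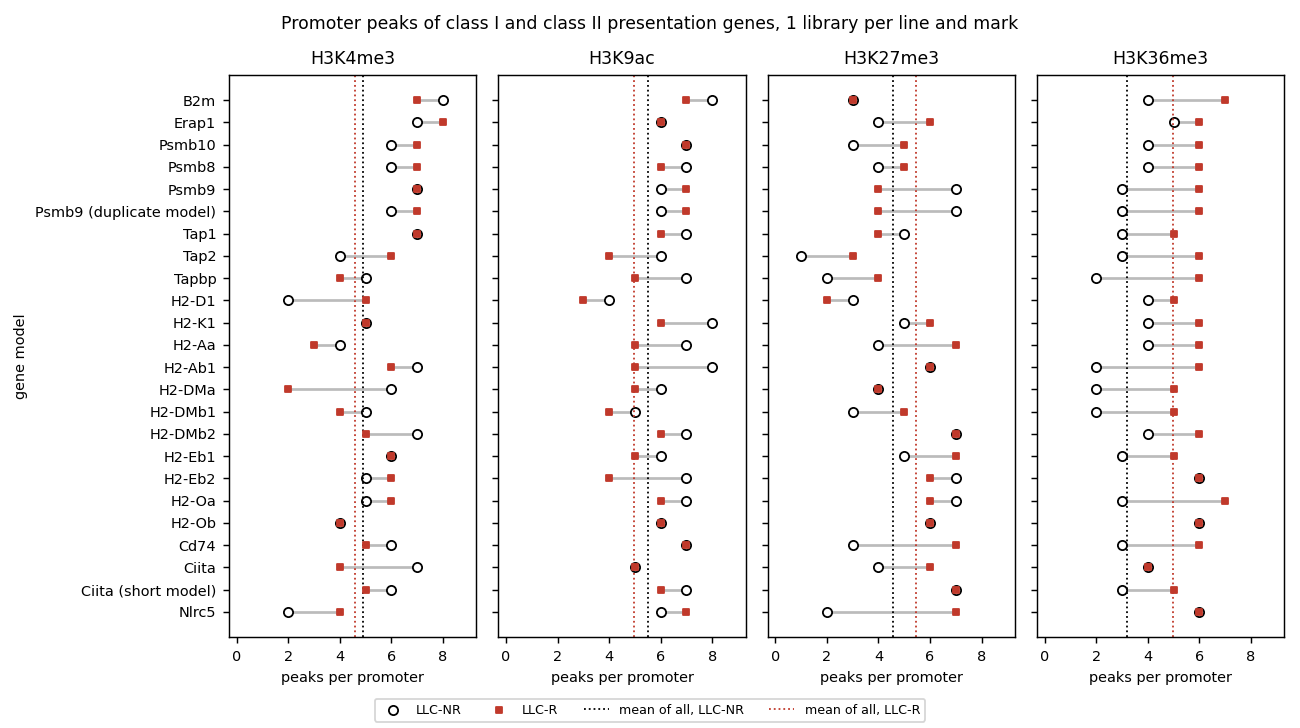
Promoter peaks (x axis, number per 1.5 kb) of class I and class II presentation genes in LLC-NR (open circles) and LLC-R (red squares) for the 4 marks, with the means of all promoters as dotted lines. H2-DMa (6 and 2 peaks) and Ciita (7 and 4) have the longest shifts to the left for H3K4me3, and Nlrc5 (2 and 7) and Cd74 (3 and 7) the longest to the right for H3K27me3.

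The H2-Q, H2-T and H2-M genes had the widest spread. The most peaks of any member were held by H2-M10.6, with 52 over the 8 libraries, and the fewest by H2-Q6, with 12. H2-Q6 had 1 versus 2 H3K4me3 peaks, 3 versus 1 H3K9ac peaks, 1 versus 2 H3K27me3 peaks and 0 versus 2 H3K36me3 peaks. H2-Q7 had 2 H3K4me3 peaks in each line, 4 versus 2 H3K9ac peaks and 2 versus 5 H3K27me3 peaks. H2-T23, which encodes Qa-1, the ligand of the CD94/NKG2A receptor of natural killer cells, had 4 versus 2 H3K4me3 peaks, 4 versus 3 H3K9ac peaks, 3 versus 1 H3K27me3 peaks and 3 versus 1 H3K36me3 peaks. It was lower in LLC-R for all 4 marks. H2-T3, the thymus leukemia antigen, had 5 H3K4me3 peaks in each line, 7 versus 5 H3K9ac peaks and 5 H3K27me3 peaks in each line, with 2 versus 5 H3K36me3 peaks. H2-M3, which presents formylated peptides of bacteria, had 6 H3K4me3 peaks in each line, 7 versus 6 H3K9ac peaks and 5 versus 6 H3K27me3 peaks, and was the only H2-M gene with a CpG-rich promoter. H2-M10.3 had 5 versus 2 H3K4me3 peaks, 6 versus 4 H3K9ac peaks and 3 versus 7 H3K36me3 peaks, and H2-M9 had 5 versus 2 H3K4me3 peaks. Genes of the H2-M10 family are known from the vomeronasal organ. H2-T22 had 7 versus 4 H3K9ac peaks, H2-Q4 had 1 versus 5 H3K36me3 peaks and H2-M10.4 had 4 versus 7.

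The members with the fewest peaks were those with the least unique sequence. In H2-Q6, 34.5% of the promoter 50-mers had no exact second copy in the genome, and 6.89% had none within 2 mismatches. H2-Q7 had 46.2% and 9.24%, with 18 peaks over the 8 libraries. H2-T23 had 51.4% and 20.6%, with 21 peaks, and H2-T9 had 59.0% and 12.1%, with 14. No other member held fewer than 28 peaks, the number at H2-D1. Over the 49 members, Spearman's rho between the unique share and the summed peaks was 0.575 and Pearson's r was 0.884. Over all 22367 promoters these were 0.471 and 0.859. These correlations are across genes that share libraries and families, and genes are not independent replicates. Under 90% unique sequence was found in 13 members (26.5%) and in 14.6% of all promoters. The mean sum was 15 peaks for the 2 members under 50% unique, 17.5 for the 2 between 50% and 75%, 36.1 for the 9 between 75% and 90%, 43.6 for the 15 between 90% and 99% and 44.2 for the 21 at 99% or above. For all promoters the means in the same order were 3.55, 21.6, 32.3, 39.7 and 41.9.

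**Figure D4:**
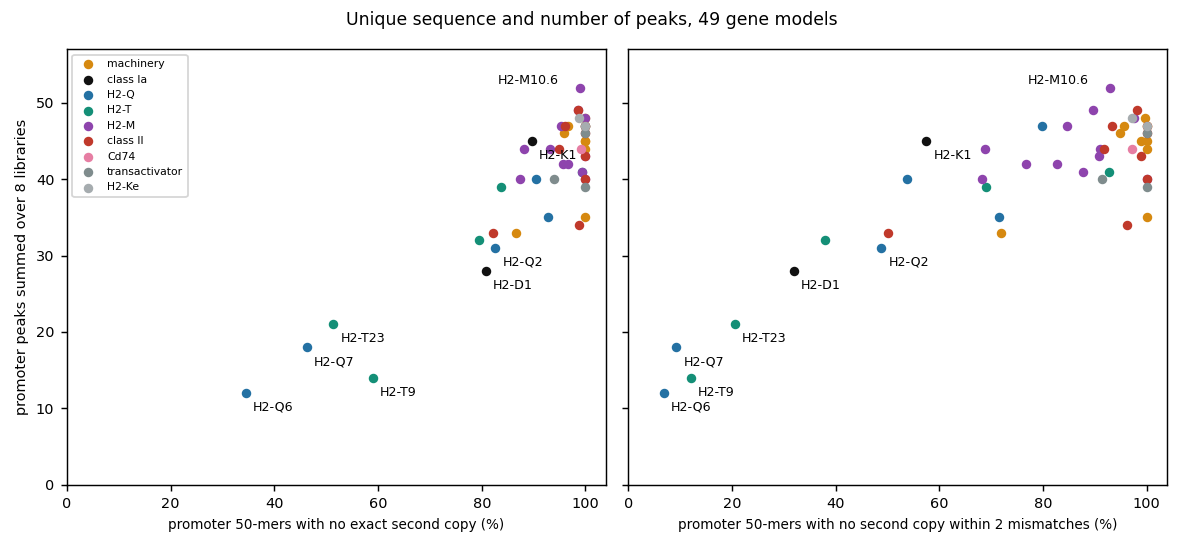
Peaks summed over the 8 libraries (y axis) against the percentage of promoter 50-mers with no exact second copy (left) and with none within 2 mismatches (right), for 49 gene models coloured by group. H2-Q6 (12 peaks, 34.5% unique), H2-T9 (14), H2-Q7 (18) and H2-T23 (21) sit apart at the lower left.

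For the least unique members, most recorded copies lay within the MHC interval itself. Only 1 copy was recorded per 50-mer, and the chromosome of this interval was searched first. A copy on another chromosome that matched equally well was not recorded, so the share of all copies that lie in the interval is not known. Of the 1351 50-mers of H2-Q6 with a copy within 2 mismatches, the recorded copy lay by H2-Q8 for 1091 and by H2-Q7 for 136. Where both matched equally well, H2-Q8 was recorded because it comes first along the chromosome. These numbers therefore do not give how many 50-mers have a copy by H2-Q7, and the numbers below are of recorded copies too. H2-Q7 had 993 of 1317 by H2-Q8, and H2-T22 had 891 of 899 by H2-T10. H2-T9 had 1244 of 1276 by Gm11127, and H2-T23 had 1028 of 1152 by C920025E04Rik. H2-DMb1 had 724 such 50-mers, all with the recorded copy by H2-DMb2, and most recorded copies of H2-M10.3 lay by H2-M10.5. The same held base by base. In all 49 promoters, positions whose surrounding 50-mer had no copy within 2 mismatches (54.4 kb) held 3.38 H3K4me3 peak midpoints per kb in LLC-NR and 3.29 in LLC-R. Positions with a copy at 1 or 2 mismatches (8.48 kb) held 2.95 and 2.59, and positions with an exact second copy (5.98 kb) held 1.17 and 1.67. The exact copies had lower values than the unique positions in each of the 8 libraries. For H3K27me3 they held 2.17 and 3.01 midpoints per kb against 3.34 and 3.67, and for H3K9ac 2.67 and 1.17 against 4.32 and 3.89. A midpoint can lie in a copied stretch while the ends of its nucleosome, where reads start, lie outside it. The levels of H2-Q6, H2-Q7, H2-T9 and H2-T23 are therefore given as numbers of peaks found, and a low number of marked nucleosomes and a low number of mappable reads cannot be told apart there.

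A difference of at least 2 peaks was taken as a call. Fewer H3K4me3 peaks in LLC-R were found at 6 of 49 members (12.2%, exact 95% interval 4.63% to 24.8%), H2-DMa, H2-DMb2, Ciita, H2-T23, H2-M10.3 and H2-M9, and at 18.4% of all promoters. More were found at 4 members (8.16%), Tap2, H2-D1, Nlrc5 and H2-M11, and at 9.0% of all promoters. The mean difference over the members was -0.143 ± 0.202 peaks (SE over genes, n = 49), against -0.306 over all promoters. For H3K9ac, 13 members (26.5%, 95% interval 14.9% to 41.1%) had fewer peaks in LLC-R, among them H2-K1, H2-Aa, H2-Ab1, H2-Eb2, Tap2 and Tapbp, against 22.1% of all promoters. None had at least 2 more (0 of 49, which allows up to 7.25%), against 5.40% of all. The mean difference for H3K9ac was -0.898 ± 0.144 peaks, against -0.543 over all promoters.

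For H3K27me3, 13 members (26.5%) had more peaks in LLC-R, against 31.9% of all promoters. These were Cd74, Ciita, Nlrc5, Erap1, Psmb10, Tap2, Tapbp, H2-Aa, H2-DMb1, H2-Eb1, H2-Ke2, H2-M10.5 and H2-Q7. Ciita is among them by the start used, and had 7 versus 6 H3K27me3 peaks at its most upstream start. Fewer were found at 4 models (8.16%), H2-M10.6, H2-T23 and both Psmb9 models, against 3.46% of all. For H3K36me3, 27 members (55.1%) had more promoter peaks in LLC-R and 1, H2-T23, had fewer, against 56.0% and 1.11% of all promoters. In each of these 8 counts the share of all promoters lay inside the exact 95% interval of the members.

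The direction for H3K27me3 depends on how the libraries are scaled. The LLC-R library of this mark holds 9101721 peaks and the LLC-NR library 7245090, and its numbers were higher far from genes as well. When LLC-R was divided by the ratio of the means of these windows, 9 members (18.4%) had at least 2 fewer H3K27me3 peaks in LLC-R, against 11.8% of all promoters, and 2 had more, against 4.73%. The 2 with more were Cd74 and Nlrc5, so these were above the change of the whole library at the starts used. At the annotated 5' end of Nlrc5, with 3 and 6 peaks, the scaled difference was below the cut of 2. The 9 with fewer were H2-Eb2, H2-M10.1, H2-M10.6, H2-M11, H2-Oa, H2-Q2, H2-T23 and both Psmb9 models. The median of the scaled difference was -0.808 peaks over the members and -0.211 over all promoters. Windows of the MHC interval far from any TSS were also lower in LLC-R, at 110% versus 95.6% of the mean of all windows, so this is not particular to the genes. For H3K4me3 the same scaling left the 6 with fewer peaks as they were, against 18.4% of all promoters. It left H2-D1 alone with more, against 2.52%. The factor on LLC-R was only 0.998 for this mark, so a gain of exactly 2 peaks fell just below the cut. Tap2 (4 versus 6), Nlrc5 (2 versus 4) and H2-M11 (3 versus 5) dropped out in this way, not through a change of scale. For H3K9ac the scaling left 3 with fewer, H2-Ab1, H2-Eb2 and H2-T22, against 6.53%, and 0 with more, against 5.40%. For H3K36me3 it left 6 with more, H2-Ab1, H2-Oa, Tapbp, H2-Ke2, H2-M10.3 and H2-Q4, against 13.1%, and 2 with fewer, H2-M3 and H2-T23, against 4.36%. After division by uniquely mapped reads, all 4 marks turned direction over the members, with a log2 ratio of LLC-R to LLC-NR of 0.23 for H3K4me3, 0.58 for H3K9ac, -0.97 for H3K27me3 and -0.66 for H3K36me3, against -0.04, -0.22, 0.13 and 0.56 for the numbers as deposited. The same division gave 0.18, 0.65, -0.84 and -0.58 over all promoters. It left 33 members with fewer H3K27me3 peaks in LLC-R and 0 with more, against 54.5% and 0.210% of all promoters. For H3K36me3 it left 17 with fewer and 0 with more, against 22.4% and 0.921%. For H3K9ac it left 0 with fewer and 32 with more, against 0.724% and 68.2%, and for H3K4me3 4 with fewer and 14 with more, against 4.56% and 19.9%.

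Promoter states describe which marks lie above the mean of all promoters of the library. A promoter is active with H3K4me3 or H3K9ac above the mean and H3K27me3 below it, bivalent with both above, repressive with H3K27me3 alone above, and none otherwise. In LLC-NR, 15 members (30.6%) were active, 27 (55.1%) bivalent, 2 (4.08%) repressive and 5 (10.2%) none, against 29.8%, 48.3%, 8.20% and 13.6% of all promoters. In LLC-R, 14 (28.6%) were active, 27 (55.1%) bivalent, 1 (2.04%) repressive and 7 (14.3%) none, against 28.4%, 52.9%, 5.73% and 12.9%. B2m, Psmb8, Psmb10, Tap2, Tapbp, H2-DMa and H2-T24 were active in both lines. Tap1 and both Psmb9 models were bivalent in LLC-NR and active in LLC-R. Cd74, Ciita, Erap1, H2-Aa, H2-Ke2 and Nlrc5 went the other way, from active in LLC-NR to bivalent in LLC-R. For Ciita this holds at the start used only. At its most upstream start, with 7 versus 5 H3K9ac and 7 versus 6 H3K27me3 peaks, it was bivalent in both lines. The 3 genes H2-M2, H2-Q4 and H2-T3 were bivalent in LLC-NR and active in LLC-R, and H2-M10.3 was bivalent in LLC-NR and repressive in LLC-R. In all, 18 of 49 members (36.7%, 95% interval 23.4% to 51.7%) had another state in LLC-R, against 37.9% of all promoters. The threshold itself moved, since a mean of 4.55 H3K27me3 peaks separates 4 from 5 in LLC-NR and a mean of 5.45 separates 5 from 6 in LLC-R. H2-M2 and H2-T3 held 5 H3K27me3 peaks in each line, so they changed state with no difference in that mark.

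In gene bodies, from 0.5 kb downstream of the TSS to the gene end, the class I machinery again had a higher mean of H3K4me3 and a lower mean of H3K27me3 than the class II and H2-M genes, but class II and not H2-M had the higher H3K27me3. The class I machinery held 3.75 ± 0.591 H3K4me3 peaks per kb of body in LLC-NR, and 3.66 ± 0.654 per kb in LLC-R (SD over genes, n = 8), against 2.65 ± 0.885 and 2.62 ± 0.836 over 19581 bodies. H3K36me3 was 3.73 ± 0.437 and 4.25 ± 0.379 peaks per kb, against 2.99 ± 0.987 and 3.75 ± 0.904. B2m was highest of the machinery for H3K36me3 in LLC-NR, with 4.49 peaks per kb in each line. The 12 H2-M genes held 2.42 ± 0.612 and 3.4 ± 0.903 H3K36me3 peaks per kb and the 9 class II genes 3.01 ± 0.667 and 3.7 ± 0.43. In H3K4me3 the class II bodies held 3.24 ± 0.812 versus 2.63 ± 0.378 peaks per kb. The H2-M bodies were lower in H3K4me3, at 2.19 ± 0.9 versus 2.06 ± 0.835. For H3K27me3 the machinery held 2.32 ± 0.724 and 3.35 ± 0.43 peaks per kb, against 2.76 ± 1.01 and 3.64 ± 0.883 over all bodies. The class II bodies held 3.36 ± 1.04 and 4.08 ± 0.558 H3K27me3 peaks per kb and the H2-M bodies 3.34 ± 0.807 and 3.74 ± 0.463, so that these groups differed by less than the spread among their genes.

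A body was called where its density, divided by the mean of all bodies of the library, differed by at least 1.5-fold, which was compared for 48 members. H2-D1 was left out because its body is 0.979 kb long from the start used. For H3K27me3, 9 of 48 (18.8%, 95% interval 8.95% to 32.6%) were higher in LLC-R, against 8.13% of all bodies, and 1 was lower, H2-M1, against 1.27%. Psmb10 held 1.39 H3K27me3 peaks per kb in LLC-NR and 3.70 in LLC-R, a relative density 2.02-fold higher. B2m held 1.43 and 3.06 peaks per kb, 1.63-fold higher, and Cd74 1.81 and 3.61, 1.52-fold higher. H2-DMa held 2.05 and 4.09 peaks per kb and H2-DMb1 1.65 and 3.31, each 1.52-fold higher. H2-T22 held 0.410 and 1.23 peaks per kb, and H2-T9 held 0 versus 1.38, so no fold is given for it. H2-Ke2 and H2-M10.2 were the other 2. Bodies of 2 kb or less turn on single peaks, and H2-T9, H2-Ke2 and H2-M10.2 have 1.45, 1.02 and 1.76 kb. Among bodies with at least 90% unique 50-mers, 5 of the 9 were still called. Under division by uniquely mapped reads in place of the mean of all bodies, 30 of the 48 bodies were lower in H3K27me3 and 1 was higher, against 57.2% and 1.42% of all bodies.

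**Figure D5:**
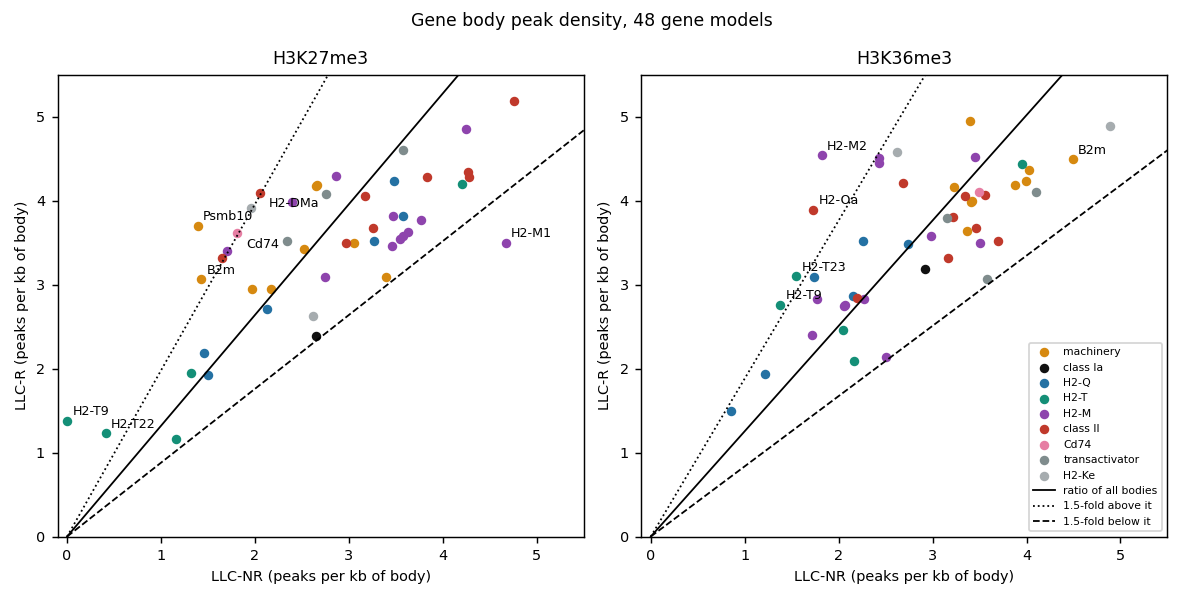
Peaks per kb of gene body in LLC-NR (x axis) and LLC-R (y axis) for H3K27me3 (left) and H3K36me3 (right), 48 gene models coloured by group, with the ratio of all bodies (solid) and 1.5-fold above (dotted) and below (dashed) it. Psmb10 (1.39 and 3.70), B2m (1.43 and 3.06), Cd74 and H2-DMa reach the dotted line for H3K27me3, and H2-M2, H2-Oa, H2-T23 and H2-T9 do for H3K36me3.

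For H3K36me3, 4 bodies were higher in LLC-R (8.33%), H2-M2, H2-Oa, H2-T23 and H2-T9, against 6.59% of all, and 0 were lower, against 0.460%. H2-Oa, a chain of the inhibitor of H2-DM, held 1.73 H3K36me3 peaks per kb in LLC-NR and 3.89 in LLC-R, 1.79-fold higher in relative density. For H3K4me3, 4 were lower, H2-M10.1, H2-M10.4, H2-M10.6 and the distal model of H2-Q2, against 2.49% of all, and 2 were higher, H2-M10.2 and H2-M10.5, against 2.94%. These 6 bodies have 72.9% to 93.7% unique 50-mers. For H3K9ac, H2-T22 and H2-T9 were lower, against 1.54% of all, and 0 were higher, against 1.15%. The body densities of B2m for H3K4me3 and H3K9ac were the same in both lines, 4.08 peaks per kb each.

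Peak positions were compared between the lines, without a chance level for how often peaks at these densities meet. Of the 235 H3K4me3 peaks in the member promoters of LLC-NR, 39.1% had a midpoint within 20 bp of an H3K4me3 midpoint of LLC-R, against 37.5% in all promoters. For the other libraries this share was 26.2% to 45.4% in members and 21.9% to 44.8% in all promoters. A peak covered the TSS at 20 members (40.8%) for H3K4me3 in each line, against 42.0% and 39.1% of all promoters. For H3K36me3 it was 8 members (16.3%) in LLC-NR and 24 in LLC-R, against 21.9% and 36.8%.

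Other genes of the pathway, from lists fixed by known function, were taken for comparison, 31 in all. Of these, 5 had at least 2 fewer H3K4me3 peaks in LLC-R and 2 had more, against 18.4% and 9.0% of all promoters. For H3K9ac it was 9 and 1, against 22.1% and 5.40%. For H3K27me3 it was 1 and 13, against 3.46% and 31.9%, and for H3K36me3 0 and 24, against 1.11% and 56.0%. Among the 8 genes of interferon gamma signalling, Irf1, a transcription factor that the pathway induces, had 6 versus 7 H3K4me3 peaks and 7 H3K9ac peaks in each line. Of the 4 genes of class II peptide processing, Ctsl (cathepsin L) had 9 versus 6 H3K4me3 peaks and Ifi30, a lysosomal thiol reductase, had 7 and 4, while Ctss (cathepsin S) had 5 and 6 and Lgmn (legumain) 5 and 4. For H3K9ac, Ctss had 8 versus 4 peaks, Ctsl 8 and 5 and Ifi30 8 and 6, and Lgmn went the other way with 4 and 7. At least 2 fewer H3K9ac peaks were thus found at 3 of the 4 and at least 2 more at 1, against 22.1% and 5.40% of all promoters. None of the 7 genes for factors that bind MHC promoters was called for H3K4me3 in either direction. Calreticulin (Calr) and calnexin (Canx), chaperones of class I loading, had 6 H3K4me3 peaks in each line.

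A tumor holds host cells as well, and class II genes are mostly used by leukocytes, so leukocyte markers were counted in the same libraries. The 8 markers had 38 H3K4me3 peaks in all in LLC-NR and 28 in LLC-R, with 2 to 7 and 1 to 6 per promoter, and 3 had at least 2 fewer in LLC-R, among them Ptprc with 7 and 4 and Itgax with 6 and 2. Their H3K9ac sum was 53 versus 42. None of the 8 was at 0 in either line. The fewer H3K4me3 peaks at H2-DMa, H2-DMb2 and Ciita stand beside these values, and the part of leukocytes in them was not tested. Of 4 endothelial markers, 2 had fewer and 1 had more H3K4me3 peaks in LLC-R, with means of 5.0 versus 4.25. Of 4 fibroblast markers, 1 had fewer and 1 had more, with means of 5.25 versus 5.5. Lung epithelial markers averaged 5.0 H3K4me3 peaks in each line with 6.0 versus 6.75 H3K27me3 peaks, and epithelial markers 5.5 with 5.0 versus 6.25. All 4 lung markers, Sftpc, Sftpb, Scgb1a1 and Nkx2-1, were bivalent in both lines, the most common state, held by 48.3% versus 52.9% of all promoters.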

How the data were processed

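Peak lists from ChIP-seq of 4 histone marks were used, with 1 LLC-NR and 1 LLC-R library for each mark. Reads were aligned by the authors to mm9 with Bowtie 0.12.7. They allowed up to 2 mismatches, kept uniquely mapped reads only and called peaks with GeneTrack, whose settings are not given in the sources used here. The deposited peak lists give the position of every peak but no height, strand or read count, and no input library was used here. All peaks are 147 bp wide and do not overlap within a library. The number of peaks therefore stands for each mark, and it cannot exceed the number of nucleosomes that fit in a region.

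Gene models came from GENCODE vM1 and sequence from NCBIM37, the assembly of mm9. A promoter holds 1 kb before and 0.5 kb after the TSS shared by most transcripts (the upstream one where tied), and a peak counts where its midpoint lies inside. Gene bodies start 0.5 kb downstream of the TSS, and those of at least 1 kb were compared after division by the mean density of all bodies of the library. Promoter states used the mean over all promoters of each library as threshold, and CpG classes used a G+C content of 55% and CpG ratios of 0.6 and 0.4 in intervals of 500 bp. The unique share of a promoter is the percentage of its 50-mers with no second copy in the genome, exact or with up to 2 mismatches. The 50-mer is a stand-in, since the read length is not given in the sources used here. Exact 50-mer shares found by hashing and by base-by-base comparison were the same in 49 of 49 member promoters, and the counting and the search for copies were tested on simulated data.

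With 1 library per line and mark, the lines could not be compared by a test and no p-value is given, and no value has an error between tumors. Intervals on shares of genes are exact Clopper-Pearson 95% intervals and cover counting error only. The members, lists and thresholds were chosen with earlier results of these data known. Named with values are the genes that the rule adds by symbol, H2-K1, H2-D1, the class II genes, H2-Ke2, H2-Ke6, H2-T23, H2-T3 and H2-M3. Of the other H2-Q, H2-T and H2-M genes, those with the most or fewest peaks, with under 50% unique 50-mers or with a difference of at least 3 peaks in a mark are named too. Other names are given where a count holds few genes or a sequence is shown, and were chosen after their values were seen. Some genes counted in the lists are not reported by name here. Alternatives covered scaling (by all peaks, by distal windows and by the study's numbers of uniquely mapped reads), region, TSS, thresholds and unique sequence. The tools were NumPy 2.4.6, pandas 2.3.3, SciPy 1.17.1, Numba 0.67.0 and Matplotlib 3.10.9 under Python 3.11.15.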

Additional observations from a re-analysis of the deposited data

How the results depend on the processing

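With 1 library per line and mark, no library could be left out. No paired analysis was possible because the labels give no replicate numbers and no result comes from a test. Alternatives that select peaks by height could not be run because the lists hold none. The choice of 1 model per symbol was added after seeing the data. That choice, 1 gene per shared window and the most upstream TSS for all members each kept all their values within 1.5 times or within the spread. So did leaving out H2-Ke2 and H2-Ke6, the median as state threshold and 36-mers. Leaving out H2-Ke2 and H2-Ke6 could hardly do otherwise, since only H2-Ke2 is in any count of promoter calls.

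For the numbers as deposited, members with at least 2 fewer and 2 more promoter peaks in LLC-R were 6 and 4 for H3K4me3, 13 and 0 for H3K9ac, 4 and 13 for H3K27me3 and 1 and 27 for H3K36me3. Division by uniquely mapped reads gave 14 with more H3K4me3, 0 with fewer and 32 with more H3K9ac, 33 with fewer and 0 with more H3K27me3, and 17 with fewer and 0 with more H3K36me3. The mean differences then turned to 0.824, 3.09, -2.37 and -1.34 peaks for H3K4me3, H3K9ac, H3K27me3 and H3K36me3. Division by all peaks gave 3 with fewer H3K9ac, 9 with fewer and 2 with more H3K27me3, and 2 with fewer and 6 with more H3K36me3. Its mean differences were -0.426 for H3K9ac, -0.617 for H3K27me3, which turned sign, and 0.294 for H3K36me3. Division by distal windows gave 1 with more H3K4me3, 3 with fewer H3K9ac, 9 and 2 for H3K27me3 and 2 and 6 for H3K36me3. The value for H3K4me3 comes from the cut, since a factor of 0.998 puts a gain of 2 peaks just below 2. Mean differences were -0.436 for H3K9ac, -0.606 for H3K27me3 (turned sign) and 0.263 for H3K36me3. The factors on LLC-R differ by construction, and which of them fits these tumors was not tested.

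A region of 1 kb on each side of the TSS gave 7 with more H3K4me3 and mean differences of -1.12 for H3K9ac and 2.31 for H3K36me3. Counting any overlap gave 0 with fewer H3K36me3 and a mean of 1.94. Calls at 1 peak gave 18 and 17 for H3K4me3, 31 and 3 for H3K9ac, 14 and 23 for H3K27me3 and 2 with fewer H3K36me3. Calls at 3 peaks gave 1 with more H3K4me3, 3 with fewer H3K9ac, 2 and 4 for H3K27me3, and 0 and 15 for H3K36me3. Promoters with at least 90% unique 50-mers, which are fewer, gave 2 with more H3K4me3, 6 with fewer H3K9ac (mean -0.667) and 0 with fewer H3K36me3.

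For bodies, the numbers lower and higher in LLC-R were 4 and 2 for H3K4me3, 2 and 0 for H3K9ac, 1 and 9 for H3K27me3 and 0 and 4 for H3K36me3. Bodies from the TSS gave 4 lower for H3K9ac and 3 and 5 for H3K27me3. Bodies from 0.5 kb to 3 kb gave 3 lower for H3K27me3 and 2 lower for H3K36me3. Division by reads gave 2 and 4 for H3K4me3, 1 and 29 for H3K9ac, 30 and 1 for H3K27me3 and 35 and 0 for H3K36me3. Division by all peaks gave 2 and 2 for H3K36me3. Division by distal windows gave the same 2 and 2, and 1 higher for H3K4me3. Calls at a lower fold threshold gave 8 and 5 for H3K4me3, 6 and 2 for H3K9ac, 13 lower for H3K27me3 and 8 and 11 for H3K36me3. Calls at 2-fold gave 1 and 0 for H3K4me3, 1 lower for H3K9ac, 0 and 3 for H3K27me3 and 0 higher for H3K36me3. Bodies with at least 90% unique 50-mers gave 1 and 0 for H3K4me3, 0 lower for H3K9ac, 5 higher for H3K27me3 and 2 higher for H3K36me3. Counting copies within 2 mismatches put 21 members under 90% unique, in place of 13. Except where a choice leaves fewer genes or moves the threshold, the cause was not tested.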

Other observations

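6 further H2- gene models of the annotation are not protein coding and were not counted among the members. H2-Q8, a processed transcript and the locus by which most recorded copies of H2-Q6 and H2-Q7 lay, held 9 promoter peaks over the 8 libraries, fewer than any member. Its promoter had 2 versus 1 H3K4me3 peaks (LLC-NR versus LLC-R) and 1 versus 0 H3K27me3 peaks. H2-T10, a polymorphic pseudogene by which most recorded copies of H2-T22 lay, held 33 peaks over the 8 libraries. It had 5 H3K4me3 peaks in each line and 1 versus 5 H3K27me3 peaks. H2-Bl, a polymorphic pseudogene, held 27 peaks, with 4 versus 1 H3K9ac peaks. The pseudogene H2-Ea-ps held 48 peaks, with 6 versus 4 H3K4me3 peaks, and was thus at the level of the class II members beside it, which held 33 to 49. H2-K2 and H2-M6-ps held 37 and 39 peaks.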
